A study of Mus musculus with 28 samples.

Results

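The genes described here encode the killing machinery of cytotoxic lymphocytes: the granzymes Gzma, Gzmb, Gzmc and Gzmk, the pore protein perforin (Prf1), the granule membrane protein Nkg7 and Fas ligand (Fasl). These 7 genes were chosen by name, and their values were read in all 24 RNA-seq libraries from a table of 24089 genes. The study asked how mouse CD4+ T cells become Th9 cells, the IL-9-producing helper cells that arise with TGF-β and IL-4. Naïve CD4+ cells were selected on beads from spleen and lymph nodes of Tgfbr1 f/f Ert2-cre+ mice. Mice given oil are called WT, and mice given tamoxifen, which switches on the Cre recombinase and deletes a part of Tgfbr1, are called KO.

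Cells of either genotype were activated with anti-CD3 and anti-CD28 alone (control) or with TGF-β, IL-4 or both cytokines added. Each of these 8 groups had 3 libraries, numbered 1 to 3 within a genotype in the labels, which do not say whether a number stands for 1 mouse. Cells were sorted straight into lysis reagent for RNA-seq, and the population sorted is not given in the sources used here. All mice carried the floxed allele and the Cre transgene, and tamoxifen was given only to KO mice, so drug and deletion cannot be told apart. The time in culture of the RNA-seq libraries is not given in the sources used here. DNase-seq, which maps open chromatin, was available for 4 libraries, 1 each from control cells and cells given both cytokines in either genotype.

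Cytotoxic cells store granzymes, which are serine proteases, together with perforin in granules held on a serglycin core. On contact with a target cell the granule contents are released, perforin opens the target membrane, and granzymes enter and cut proteins that drive cell death. Nkg7 is a granule membrane protein needed for efficient release. Fas ligand acts by another route, on the cell surface, where it engages the death receptor Fas on the target. CD8+ T cells and NK cells are the best known users of both routes, but activated CD4+ T cells also express several of these genes, and TGF-β is known to restrain them in CD8+ T cells.

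The headings of the table conflict with read counts that the study lists by library number, so each column was read by its place in library-number order. Those counts cover 8 of the 12 WT libraries. For 8 of the 8, the column whose pattern of zeros best matched the read counts lay at the place of that library number, with 99.85% or more of 1991 to 1996 genes matching. The next best column matched at most 85.89% of genes. The heading named that library for 2 of the 8 and another library for 6. The other 4 WT columns and the 12 KO columns rest on the order alone. Heading and order give the same group for 8 of 24 columns, and both readings give the same genotype for all 24.

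The choice of reading decides nearly every comparison between cultures below. By place in order, the highest Gzmb value within a group was 1.07 to 1.31 times the lowest (median over the 8 groups 1.22). As headed, this ratio ran from 1.43 to 14.3 (median 3.59). By order the ratio reached 2.38 for Gzma (median 1.34, as headed 5.65) and 3.12 for Gzmc (median 1.81, as headed 2.57). For Nkg7 it was 1.03 to 1.38 by order and 1.04 to 1.42 as headed. Correlations between libraries of a group over all genes had a median of 0.9958 by order and 0.9903 as headed. By order 13 of 24 columns were most like a column of their own group, against 7 as headed. With the headings, 15 of the 16 comparisons made here called no gene at all (0% of genes tested, with 37 to 3284 genes at an unadjusted p under 0.05), and KO against WT control cells called 7 genes (0.0724%), Nkg7 among them at a log2 fold change of -1.40 (limma adjusted p = 0.00488).

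**Figure D1:**
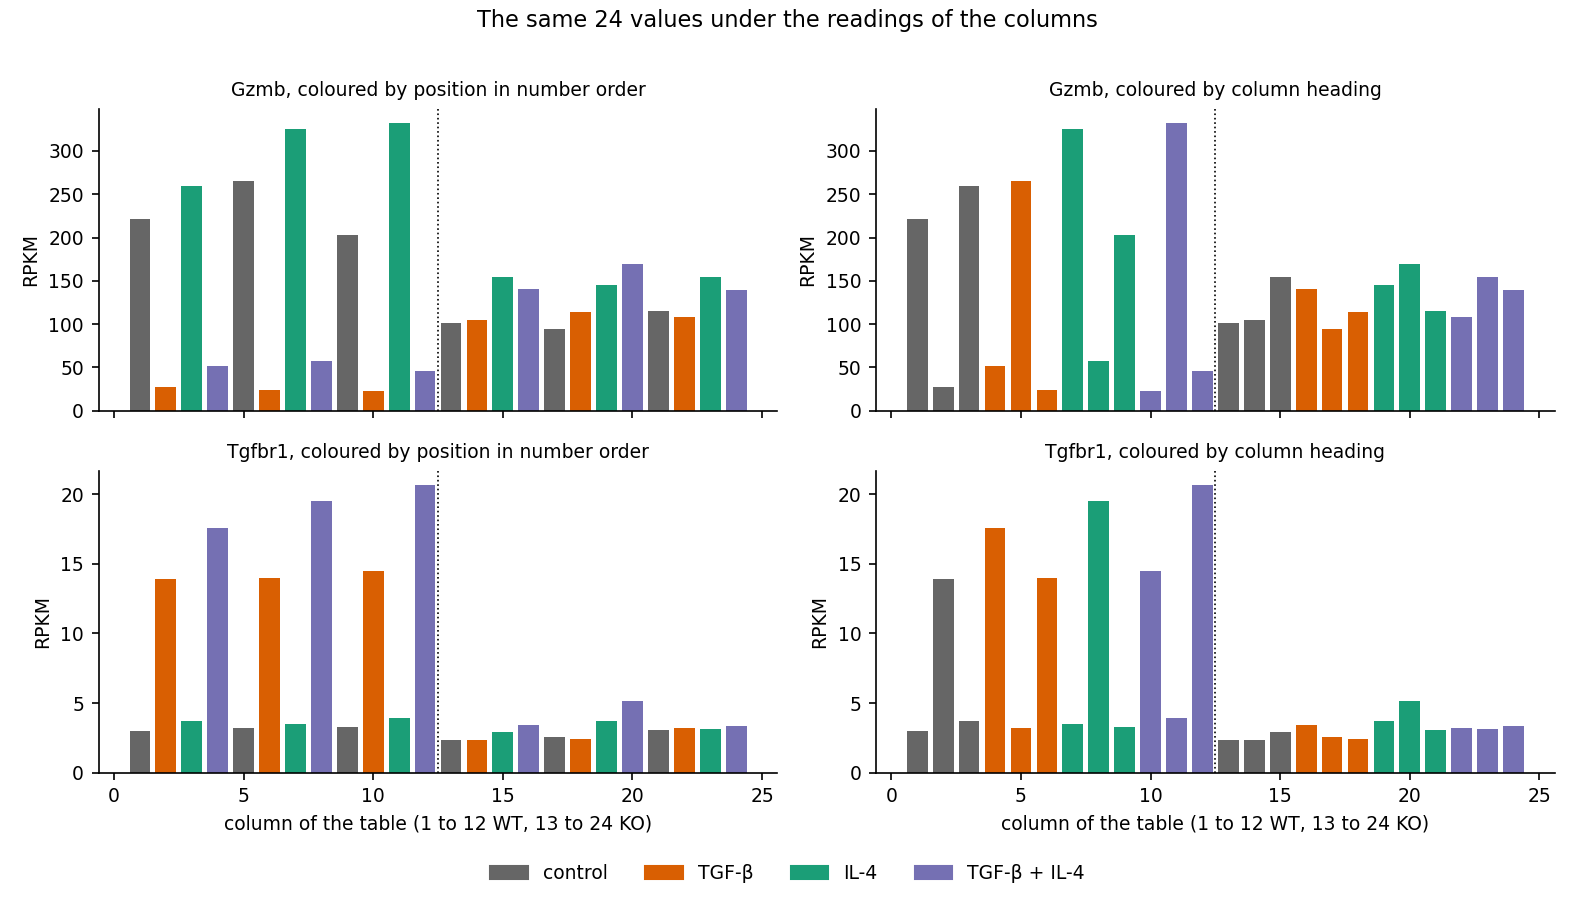
RPKM of Gzmb (top) and Tgfbr1 (bottom) in the 24 columns of the table, in the order of the table, with bars coloured by culture as given by place in library-number order (left) or by column heading (right); the dotted line parts WT from KO columns. By order, the Gzmb values of WT cultures with TGF-β lie between 23.2 and 57.5 RPKM and those without it between 203 and 332 RPKM, while the headings put low and high columns in the same culture.

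Values are in RPKM, reads scaled to gene length and library size, so that levels can be set side by side between genes. Depth is not listed, but low values move in steps of whole reads, and these steps gave depths of 0.575 to 1.199 times that of WT control replicate 1 (median 0.883 for WT and 0.819 for KO libraries). KO replicate 2 with both cytokines stood apart from its group, with a mean correlation of 0.9892 to the other libraries of that group. Those other libraries had 0.9919 and 0.9922, and the most alike library of all, WT control replicate 1, had 0.9971. Called changes of the 7 genes that use KO replicate 2 with both cytokines are given with and without it, and values of other single genes with it only. Changes were tested with limma on log2(RPKM + 1), adjusted over all genes tested by the Benjamini-Hochberg method, and a gene was called at an adjusted p below 0.01 with a fold change above 1.5. On this scale the change of low genes is understated. Of the 7 genes, 6 passed the filter of a mean of 1 RPKM in every comparison, and Gzmk passed in none.

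The deleted gene itself was read first. Tgfbr1, the type I TGF-β receptor, measured 3.02, 3.25 and 3.31 RPKM in the WT control libraries and 2.32, 2.55 and 3.05 RPKM in the KO control libraries. KO control against WT control was not called (log2 fold change -0.21, adjusted p = 0.164), so RPKM over the whole gene does not check the deletion in control cultures. In WT cells Tgfbr1 rose with TGF-β to 13.88, 13.9985 and 14.48 RPKM and with both cytokines to 17.6, 19.5 and 20.7 RPKM. KO libraries with TGF-β had 2.37, 2.42 and 3.24 RPKM, and those with both cytokines had 3.45, 5.18 and 3.35 RPKM. With both cytokines the KO level was lower than the WT level by a log2 fold change of -2.03 ± 0.142 (standard error, n = 3 and 3 libraries, limma adjusted p = 4.36e-05).

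Among the 7 genes, Gzmb had the highest mean over the 24 columns, 140.8 RPKM, followed by Nkg7 at 80.1 RPKM and Gzma at 33.0 RPKM. Prf1 averaged 7.93 RPKM, Fasl 4.78 RPKM and Gzmc 1.81 RPKM. Gzmk was barely detected: 0 to 0.626 RPKM, which comes to 73 reads over all libraries and none in 7 of them. Gzmc was read from 16 to 135 reads per library. Of the 6 other granzyme genes listed (Gzmd, Gzme, Gzmf, Gzmg, Gzmm and Gzmn), none passed the filter in any comparison, and Gzmd, Gzme, Gzmf and Gzmg had at most 2, 5, 9 and 7 reads in a library. The granzyme message of these CD4+ cultures was therefore mainly that of Gzmb and Gzma.

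**Figure D2:**
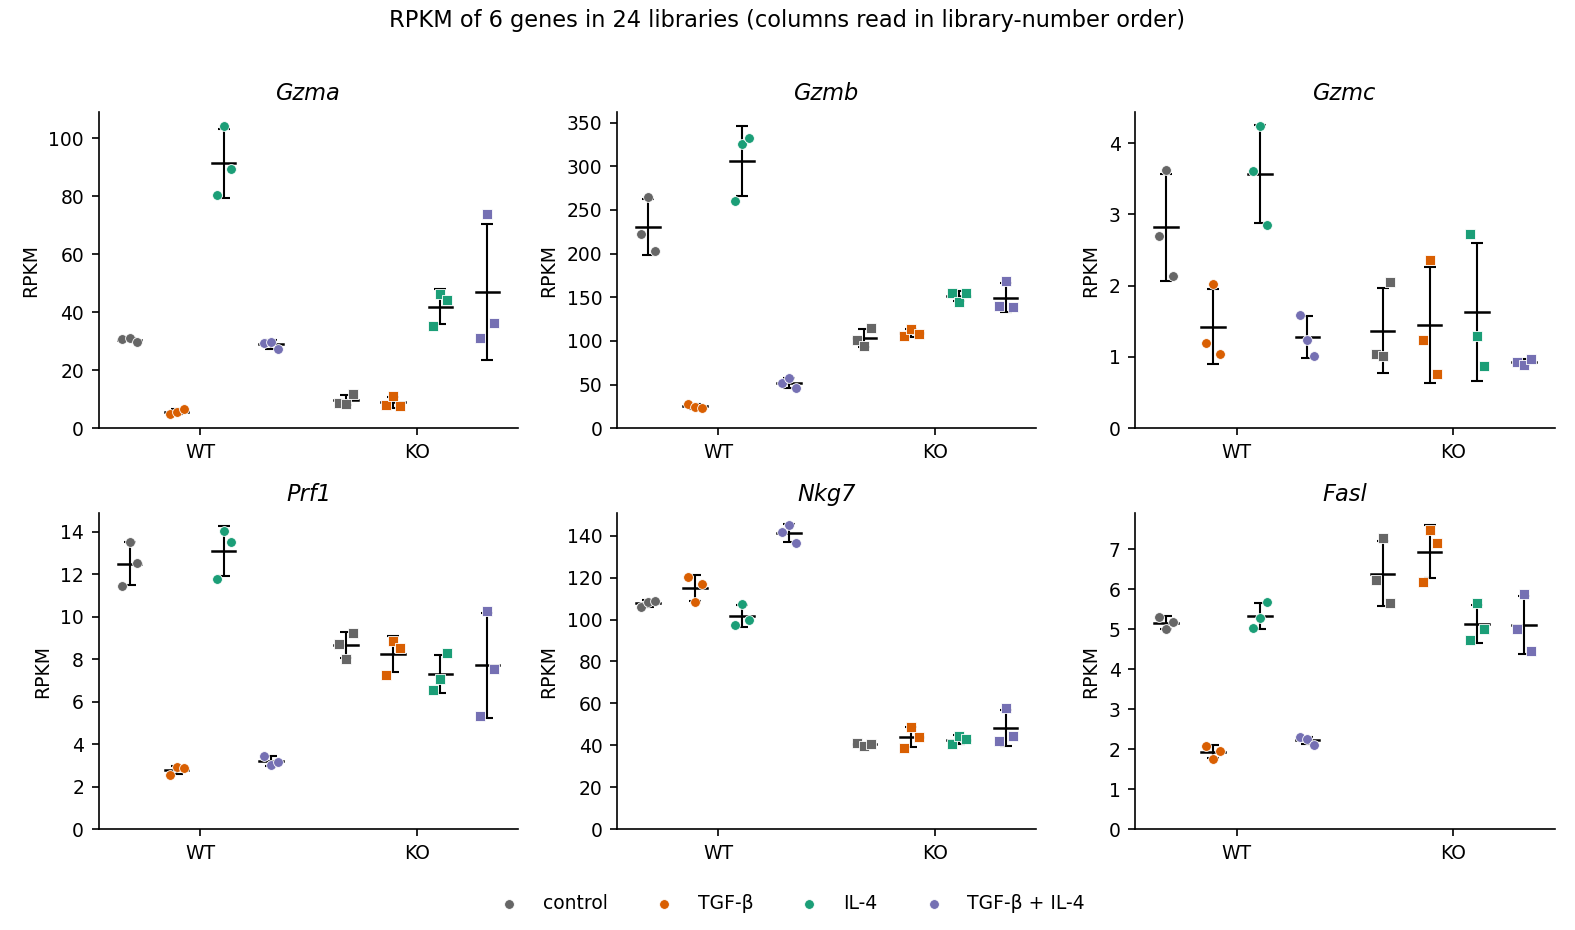
RPKM of 6 of the 7 genes in each of the 24 libraries (points; circles WT, squares KO) with the group mean and SD (lines, n = 3), read in library-number order. In WT cells Gzmb, Prf1 and Fasl are low in both cultures with TGF-β, Gzma is high with IL-4, and Nkg7 separates the genotypes, with 97.6 to 145 RPKM in WT and 38.9 to 57.9 RPKM in KO libraries.

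TGF-β alone lowered 4 of the 6 tested genes in WT cells and raised none, against 5.71% of all genes called in that comparison. Gzmb, the granzyme that cleaves after aspartate, fell most. Its WT control libraries had 222, 265 and 203 RPKM, and its WT libraries with TGF-β had 27.6, 23.9 and 23.2 RPKM. The groups lay far apart, the control mean being 9.23 times the mean with TGF-β. The log2 fold change was -3.15 ± 0.105 (standard error, 3 libraries in each group, limma adjusted p = 1.46e-06).

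Gzma, the tryptase-like granzyme, followed at a lower level. It measured 30.6, 31.0 and 29.9 RPKM in WT control libraries and 4.97, 5.52 and 6.72 RPKM with TGF-β, a log2 fold change of -2.23 ± 0.0927 (adjusted p = 4.04e-06). Prf1 had 11.5, 13.5 and 12.52 RPKM in control libraries and 2.55, 2.90 and 2.87 RPKM with TGF-β, so that perforin and its main granzyme fell in the same cultures (log2 fold change -1.84 ± 0.0786, adjusted p = 4.36e-06). Fasl went from 5.32, 5.00 and 5.19 RPKM to 2.08, 1.76 and 1.96 RPKM (log2 fold change -1.07 ± 0.0691, adjusted p = 3.22e-05). For each of these 4 genes every library with TGF-β lay below every control library.

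Not all of the machinery went down. Nkg7 measured 106, 109 and 109 RPKM in control libraries and 120, 108 and 117 RPKM with TGF-β, and its log2 fold change of 0.09 was not called (adjusted p = 0.239). Gzmc had 2.69, 3.62 and 2.14 RPKM without and 1.196, 2.02 and 1.05 RPKM with TGF-β. Its log2 fold change of -0.66 missed the threshold (adjusted p = 0.0387), but it was called with the replicate number as a block in the fit (adjusted p = 0.0003). These are bulk cultures, in which fewer cells making a message and less message per cell cannot be told apart.

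IL-4 alone raised Gzma and no other of the 6 tested genes in WT cells, where 1.29% of all genes were called. The 3 WT libraries with IL-4 had 80.6, 104 and 89.3 RPKM of Gzma, all above the control libraries and 2.99 times their mean (log2 fold change 1.54 ± 0.0853, limma adjusted p = 7.39e-05). Gzmb measured 260, 326 and 332 RPKM with IL-4, the last being the highest value of any member in any library, but these overlapped the control range and the change was not called (log2 fold change 0.41, adjusted p = 0.106). Prf1, Nkg7, Fasl and Gzmc had log2 fold changes between -0.08 and 0.27, none of them called. Of granzymes A and B only Gzma was thus called under this cytokine, though both had higher means than in control cells. The difference between the 2 genes was not itself tested.

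With both cytokines, the Th9 condition, 4 of the 6 tested genes were lower than in WT control cells and none was called higher (9.27% of all genes called). Gzmb had 52.0, 57.5 and 46.4 RPKM, below the control libraries and above those with TGF-β alone (log2 fold change from control -2.12 ± 0.103, limma adjusted p = 9.82e-07). Prf1 had 3.46, 3.02 and 3.16 RPKM (log2 fold change -1.68, adjusted p = 8.84e-07) and Fasl 2.30, 2.25 and 2.11 RPKM (log2 fold change -0.94, adjusted p = 1.36e-05). Gzmc, at 1.59, 1.23 and 1.02 RPKM, was called lower (log2 fold change -0.73, adjusted p = 0.00352). The Gzmc call is fragile: it was lost with the adjusted p between 0.0129 and 0.0186 when WT control replicate 1 or replicate 2 or 3 with both cytokines was left out.

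Gzma and Nkg7 took another course with both cytokines. Gzma stood at 29.5, 29.9 and 27.3 RPKM, overlapping the control libraries, and was not called (log2 fold change -0.08, 95% interval -0.20 to 0.04). Nkg7 reached 142, 145 and 137 RPKM, above every library of the other 3 WT cultures, but the log2 fold change of 0.39 lay under the fold threshold (adjusted p = 0.000154). Against IL-4 alone, adding TGF-β lowered 5 of the 6 tested genes, against 9.28% of all genes called: Gzma by a log2 fold change of -1.62, Gzmb by -2.53, Gzmc by -0.999, Prf1 by -1.74 and Fasl by -0.97. Against TGF-β alone, adding IL-4 raised Gzma (log2 fold change 2.16, adjusted p = 1.91e-06) and Gzmb (1.03, adjusted p = 8.16e-05), with 3.03% of all genes called. Prf1 and Fasl did not pass that test, at log2 fold changes of 0.16 and 0.14.

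The effects of the cytokines together were compared with the sum of each alone. This interaction called none of the 6 genes at the thresholds used, while 1.77% of all genes were called and 2617 of 9794 genes had an unadjusted p under 0.05. Gzma came closest, with 0.61 ± 0.137 on the log2 scale and an adjusted p of 0.015 in limma. Without WT replicate 2 with IL-4, or without WT replicate 3 with TGF-β, Gzma was called (0.71, adjusted p = 0.00601, and 0.72, adjusted p = 0.00643). Nkg7 had an adjusted p of 0.006 but a log2 value of 0.38, under the fold threshold.

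When only the 8 WT libraries identified by read counts were used, 2 per culture, the assignment of columns did not rest on order alone. TGF-β alone then lowered 5 of 6 tested genes (5.77% of all genes called), Gzmc being added at a log2 fold change of -0.68. IL-4 raised Gzma (0.755% of all genes called). Both cytokines lowered Gzmb, Prf1 and Fasl against control (10.0% of all genes called). Gzmc missed both thresholds, at a log2 fold change of -0.57 and a limma adjusted p of 0.0109. Against IL-4 alone 5 genes were lower (10.0% of all genes called), and against TGF-β alone 2 were higher (4.59% of all genes called). The interaction of the cytokines called 0 of the 6 genes and 0.929% of all genes.

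In KO cells TGF-β moved none of the 6 tested genes. This comparison called 1 of 9563 genes in limma (0.0105%), with 246 genes at an unadjusted p under 0.05. Gzmb had 101, 94.1 and 115 RPKM in KO control libraries and 105, 114 and 108 RPKM with TGF-β. The 95% interval of its log2 fold change, -0.09 to 0.25, lies far from the WT value of -3.15. The interaction of genotype and TGF-β, which is the KO change minus the WT change, was called for 4 of the 6 genes, against 4.71% of all genes. It was 3.23 ± 0.140 for Gzmb (adjusted p = 3e-08), 2.13 ± 0.197 for Gzma (adjusted p = 1.42e-05), 1.77 ± 0.11996 for Prf1 (adjusted p = 9.3e-07) and 1.18 ± 0.125 for Fasl (adjusted p = 4.41e-05).

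**Figure D3:**
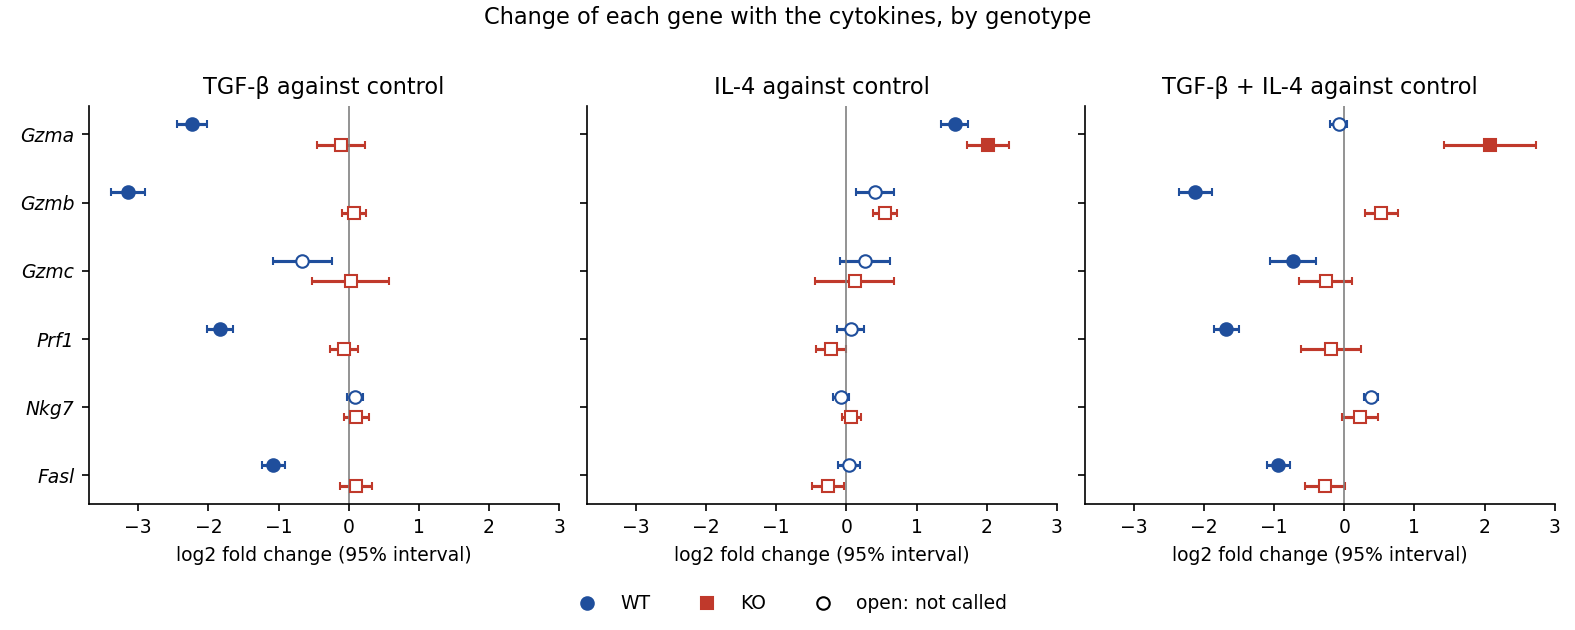
Log2 fold change of 6 genes against control cells of the same genotype, with the 95% interval from limma, for TGF-β (left), IL-4 (middle) and both cytokines (right); circles are WT, squares KO, filled where called. With TGF-β the WT value of Gzmb is -3.15 and the KO value 0.08, while the IL-4 rise of Gzma appears in both genotypes, at 1.54 and 2.01.

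The IL-4 rise of Gzma was present in KO cells too. Its KO control libraries had 8.83, 8.45 and 11.7 RPKM, and the KO libraries with IL-4 had 35.1, 46.3 and 44.3 RPKM, with no overlap. The log2 fold change was 2.01 ± 0.133 (limma adjusted p = 2.23e-05), and Gzma was the only one of the 6 tested genes called, with 2.51% of all genes called. Gzmb had 154, 145 and 155 RPKM with IL-4, above every KO control library, at a log2 fold change of 0.55 that lay just under the fold threshold (adjusted p = 0.00226). Without KO control replicate 3 the Gzmb value was 0.63 and was called (adjusted p = 0.000697). The interaction of genotype and IL-4 called none of the 6 genes and 0.0414% of all genes, with 794 of 9668 genes at an unadjusted p under 0.05 in limma.

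Both cytokines raised Gzma alone among the 6 genes in KO cells, against 1.92% of all genes called. The 3 libraries had 31.0, 73.8 and 36.2 RPKM, the highest being replicate 2, which stands apart from its group. That library also had the highest sum of NK cell markers of the 3, 12.4 RPKM against 6.81 and 6.62 RPKM. In the comparison with KO control cells 1 CD8 and 1 B cell marker were called higher and 2 CD4 T cell markers lower. The B cell sum was 22.3 RPKM with both cytokines and 9.79 RPKM in KO control cells. The part of these markers in the result was not tested. The log2 fold change of Gzma was 2.08 ± 0.286 (limma adjusted p = 0.00478), and 1.71, still called, without replicate 2. The call was lost with the replicate number as a block in the fit (adjusted p = 0.0173), where no member was called (0 of 6, against 0.912% of all genes). It was also lost when KO control replicate 1, 2 or 3 or KO replicate 3 with both cytokines was left out, with log2 fold changes of 2.03, 1.997, 2.21 and 2.21 and adjusted p between 0.0147 and 0.0327. Gzmb had 140, 169 and 139 RPKM in these libraries (log2 fold change 0.53, adjusted p = 0.0247).

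The change with both cytokines differed between the genotypes for the same 4 genes as with TGF-β alone. That interaction was 2.65 ± 0.162 for Gzmb (limma adjusted p = 5.4e-07), 2.16 ± 0.332 for Gzma (adjusted p = 0.00104), 1.49 ± 0.224 for Prf1 (adjusted p = 0.000863) and 0.66 ± 0.139 for Fasl (adjusted p = 0.00797), with 4.18% of all genes called. For Gzma, WT cells held the control level and KO cells rose, whereas for Gzmb and Prf1 WT cells fell. Leaving out KO replicate 2 with both cytokines gave 2.56 for Gzmb, 1.78 for Gzma and 1.29 for Prf1, all called, and 0.573 for Fasl, under the fold threshold (adjusted p = 0.00771). The Fasl value lies close to both thresholds and was lost in 10 of 12 fits that left out 1 library, at values from 0.573 to 0.683 and adjusted p up to 0.0255. The exceptions were KO replicate 3 with both cytokines and KO control replicate 2.

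The KO and WT cells differed before any cytokine was added, and here too drug and deletion cannot be told apart. KO control cells had less of 3 of the 6 tested genes than WT control cells, against 2.46% of all genes called: Gzma (log2 fold change -1.58 ± 0.108, limma adjusted p = 0.000113), Gzmb (-1.14 ± 0.108, adjusted p = 0.000451) and Nkg7 (-1.39 ± 0.0478, adjusted p = 5.15e-06). Prf1 was lower by a log2 fold change of -0.48 (adjusted p = 0.00741), under the fold threshold, and Fasl was not called at 0.26. So KO cells, which held Gzmb at 94.1 to 115 RPKM without cytokines and reached at most 169 RPKM with any cytokine, stayed below the WT control cells at 203 to 265 RPKM in every culture.

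With TGF-β the order of the genotype means turned for Gzma, Gzmb and Prf1, while Fasl was called higher in KO cells. Gzma had 7.79 to 11.1 RPKM in KO and 4.97 to 6.72 RPKM in WT libraries, but was not called (log2 fold change 0.55, limma adjusted p = 0.0149). The Prf1 difference between control cells had also not been called. KO cells then had more Gzmb (log2 fold change 2.09 ± 0.069), Fasl (1.44 ± 0.0882) and Prf1 (1.29 ± 0.0892) than WT cells, and less Nkg7 (-1.38 ± 0.0803), 4 of 6 genes called against 9.68% of all genes. The limma adjusted p-values were 1.95e-07, 6.02e-06, 1.17e-05 and 4.47e-06. With IL-4, KO cells had less Gzma (-1.11), Gzmb (-1.003), Prf1 (-0.77) and Nkg7 (-1.23), 4 of 6 genes against 2.99% of all genes. Without KO replicate 1 with IL-4, Gzmc was called as well (-1.13, adjusted p = 0.00286).

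With both cytokines KO cells had more Gzmb (1.51 ± 0.101, limma adjusted p = 3.48e-05), Prf1 (1.01 ± 0.190, adjusted p = 0.00508) and Fasl (0.92 ± 0.106, adjusted p = 0.000538) and less Nkg7 (-1.55 ± 0.111, adjusted p = 4.9e-05), with 8.44% of all genes called. Without KO replicate 2 these log2 fold changes were 1.42, 0.80, 0.83 and -1.69, all called. Prf1 in the 3 KO libraries spread from 5.31 to 10.3 RPKM. Its call was lost without any one of the WT libraries with both cytokines or without KO replicate 3, at log2 fold changes of 1.05, 0.98, 1.00 and 1.00 and adjusted p between 0.018 and 0.0255.

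Nkg7 shows the genotype however the columns are read, since headings and order give the same genotype for every column. Its 12 WT columns ran from 97.6 to 145 RPKM (median 108.6) and its 12 KO columns from 38.9 to 57.9 RPKM (median 42.4). No KO column reached the lowest WT column. Such a split, with all KO columns below all WT columns, was found for 157 of 9726 genes (1.61%), and Nkg7 was the only one of the 7 genes to show it. The reverse split was found for 199 genes (2.05%) and for none of the 7.

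The 8 groups can be put in order for each gene. For Gzma the order from the top was WT with IL-4 (91.3 ± 11.9 RPKM, SD, n = 3), KO with both (47.0 ± 23.4), KO with IL-4 (41.9 ± 5.98), WT control (30.5 ± 0.585), WT with both (28.9 ± 1.41), KO control (9.67 ± 1.79), KO with TGF-β (8.95 ± 1.88) and WT with TGF-β (5.74 ± 0.893). The neighbours KO with both and KO with IL-4, WT control and WT with both, and KO control and KO with TGF-β overlapped in their library values. KO with both stands above KO with IL-4 through replicate 2 at 73.8 RPKM, its other libraries having 31.0 and 36.2 RPKM. For Gzmb it was WT with IL-4 (305.9 ± 40.1 RPKM), WT control (230 ± 32.0), KO with IL-4 (151.3 ± 5.65), KO with both (149.6 ± 17), KO with TGF-β (109.1 ± 4.34), KO control (103.4 ± 10.45), WT with both (52.0 ± 5.54) and WT with TGF-β (24.9 ± 2.35). Here WT with IL-4 and WT control overlapped, as did KO with IL-4 and KO with both, and KO with TGF-β and KO control, and the lowest groups did not. For both genes WT cells with TGF-β were at the bottom.

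Prf1 ranked WT with IL-4 (13.1 ± 1.18 RPKM) and WT control (12.49 ± 1.02) at the top, overlapping each other. The 4 KO groups followed between 7.30 and 8.65 RPKM, each overlapping the next. WT with both (3.21 ± 0.228) and WT with TGF-β (2.77 ± 0.195) came last, without overlap. Fasl had its highest means in KO cells with TGF-β (6.95 ± 0.671 RPKM) and KO control cells (6.39 ± 0.814), and the next 4 groups, WT with IL-4, WT control, KO with IL-4 and KO with both, lay between 5.11 and 5.33 RPKM with overlapping libraries. WT with both (2.22 ± 0.097) and WT with TGF-β (1.93 ± 0.16) were lowest. The groups of Gzmc overlapped their neighbours from the top, WT with IL-4 at 3.56 ± 0.689 RPKM, down to WT with both, and only KO with both (0.931 ± 0.0392) lay below its neighbour.

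Over the 24 columns, a description that needs no assignment of columns to cultures, Gzmb and Prf1 ran together, with a Pearson correlation of 0.929 on the log2 scale. Prf1 and Fasl correlated at 0.835, Gzmb and Fasl at 0.757, Gzma and Gzmb at 0.723, and Nkg7 and Fasl at -0.703. The columns share genotypes and cultures, so these values describe the table and carry no test. The genes most like Gzmb among those with a mean of at least 1 RPKM were Tg, Prf1, Csf2, Sik1 and Il2 (0.938 to 0.918), of which Csf2 and Il2 encode cytokines of activated T cells. Fasl was most like Serpine2, Slco4a1, Crtam, Tnfaip8 and Stap1 (0.975 to 0.952). Gzma was most like Crabp2, Satb1, Cd8b1, Cd247 and Glipr2 (0.961 to 0.938), and Nkg7 most like Cd8a, Ifi27, Pml, Ddr1 and Runx3 (0.97 to 0.96). Prf1 was closest to Gzmb, Il12rb1, Gramd1b, Psmb8 and Sik1 (0.929 to 0.893), and Gzmc, at lower values of 0.79 to 0.729, to Ier3, Tmem147, Bst2, Rbpms2 and Crip2.

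Genes that process, store and restrain granule proteases moved in both directions in WT cells with TGF-β. Of 8 genes tested, 2 were called higher and 4 lower, where 5.71% of all genes were called, and the median log2 fold change of the list was -0.34 against 0.01 for all genes. Serpinb9, the inhibitor that shields a cell from its own granzyme B, fell from a mean of 36.3 ± 1.63 RPKM to 5.94 ± 1.43 RPKM (SD, n = 3; log2 fold change -2.45, limma adjusted p = 1.79e-05). Serpinb6b (log2 fold change -1.74) and Cst7, the cystatin that holds back granule cathepsins (-1.59), fell as well. Ctsw, a papain-like cathepsin of cytotoxic lymphocytes, rose from 31.9 ± 2.96 RPKM to 163 ± 7.42 RPKM (log2 fold change 2.32, adjusted p = 1.18e-06), and Ctsc, the dipeptidase that activates granzymes, rose by 0.62. Srgn, the serglycin core protein, was at 422 RPKM in control cells and 401 RPKM with TGF-β and was not called.

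With both cytokines 1 gene of this list was called higher and 2 lower of 8 in WT cells, where 9.27% of all genes were called. Ctsw reached 275 ± 8.18 RPKM (log2 fold change 3.07), and Serpinb9 and Cst7 were lower (-1.35 and -0.75). KO cells given both cytokines had 4 of 9 genes higher and 1 lower than WT cells in that culture, where 8.44% of all genes were called: Serpinb9 (2.06), Cst7 (1.90), Serpinb6b (1.34) and Serpinb9b (0.99) up, and Ctsw (-3.53) down. Ctsw in KO cells was 9.53 ± 1.43 RPKM in control and 23.001 ± 2.19 RPKM with both cytokines. Serpinb9b averaged 0.524 RPKM in WT and 2.04 RPKM in KO cells with both cytokines. It passed the filter of 1 RPKM there only through the KO libraries, so its call and its place in the count are a description only. Serpinb9b was under the filter when WT cells with TGF-β or with both cytokines were compared with WT control cells. In WT cells granzyme B and its inhibitor Serpinb9 were both lower with TGF-β, alone or with IL-4. In KO control cells Gzmb was lower than in WT control cells, while Serpinb9, at 34.8 against 36.3 RPKM, was not called.

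The list of granule release holds the docking and fusion machinery. Of 10 genes tested, 1 was called higher and 0 lower in WT cells with TGF-β (5.71% of all genes called), namely Rab27a, a GTPase that tethers granules at the membrane (log2 fold change 0.64). With both cytokines none was called, among 10 tested, where 9.27% of all genes were called. In that comparison limma gave 5036 of 9816 genes an unadjusted p under 0.05. Leaving out WT control replicate 3 or WT replicate 3 with both cytokines gave 1 called gene of this list. KO against WT cells with both cytokines had 0 higher and 2 lower of 11 (8.44% of all genes called), Stx11 (-1.39) and Rab27a (-0.64).

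Among 14 genes of the death receptor pathway, 2 were higher and 1 lower in WT cells with TGF-β (5.71% of all genes called). Fas itself, the receptor for Fas ligand, fell (log2 fold change -0.62), and the ligand gene Lta (0.92) and the TNF receptor gene Tnfrsf1b (0.70) rose. With both cytokines Tnfrsf1b alone was called, at 0.71, and 0 genes were lower (9.27% of all genes called). Without WT control replicate 1 the count was 2. KO cells with both cytokines had 0 of the 14 genes higher and 4 lower than WT cells (8.44% of all genes called), Lta (-2.70), Tnfrsf1b (-1.21), Ltb (-1.17) and Tnf (-0.84).

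Regulators tied to the cytotoxic programme showed 2 genes higher and 7 lower of 21 tested in WT cells with TGF-β (5.71% of all genes called). Stat4, which transmits IL-12 signals, fell by 2.12 on the log2 scale, Ifng by 1.92, the T-box factor gene Eomes by 1.74 and Crtam, a surface receptor of cytotoxic cells, by 1.56. Eomes averaged 4.46 RPKM in WT control cells and 0.611 RPKM with TGF-β. It passed the filter there only through the control libraries, so its call and its place in the count are a description only. Klf2 rose (log2 fold change 1.55). The related factor gene Tbx21 was not called, at 78.8 RPKM in control and 63.3 RPKM with TGF-β (adjusted p = 0.0139), nor was Runx3 (0.10). Prdm1, at a mean of 0.360 RPKM or less in every group, was not tested. With both cytokines 5 genes were higher and 5 lower of 21 (9.27% of all genes called), with Crtam at -1.55, Stat4 at -1.32, Eomes at -1.25, Ifng at -1.14 and Klf2 at 1.43.

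Without cytokines KO cells had 0 of 21 regulators higher and 8 lower than WT cells (2.46% of all genes called). Among these was Ifng, at 11.7 ± 3.36 RPKM in KO and 65.0 ± 5.88 RPKM in WT control cells (SD, n = 3, log2 fold change -2.40), so KO values of such genes start from another level. KO cells with both cytokines had 4 of 21 regulators higher and 7 lower than WT cells (8.44% of all genes called). Crtam (1.67), Stat4 (1.47) and Eomes (0.90) were higher, and Il2rb, a receptor chain for IL-2 and IL-15, was lower (-1.14). Runx3 was lower in KO cells with both cytokines (-0.74), and also in KO control cells (-0.75). Leaving out WT replicate 2 or 3 with both cytokines gave 7 regulators called in place of 11. Without KO replicate 2 with both cytokines the 4 lists had 5, 3, 4 and 11 genes called in this comparison, in place of 5, 2, 4 and 11. In KO cells TGF-β called 0 genes of the 4 lists in limma, in the comparison with 246 genes at an unadjusted p under 0.05.

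**Figure D4:**
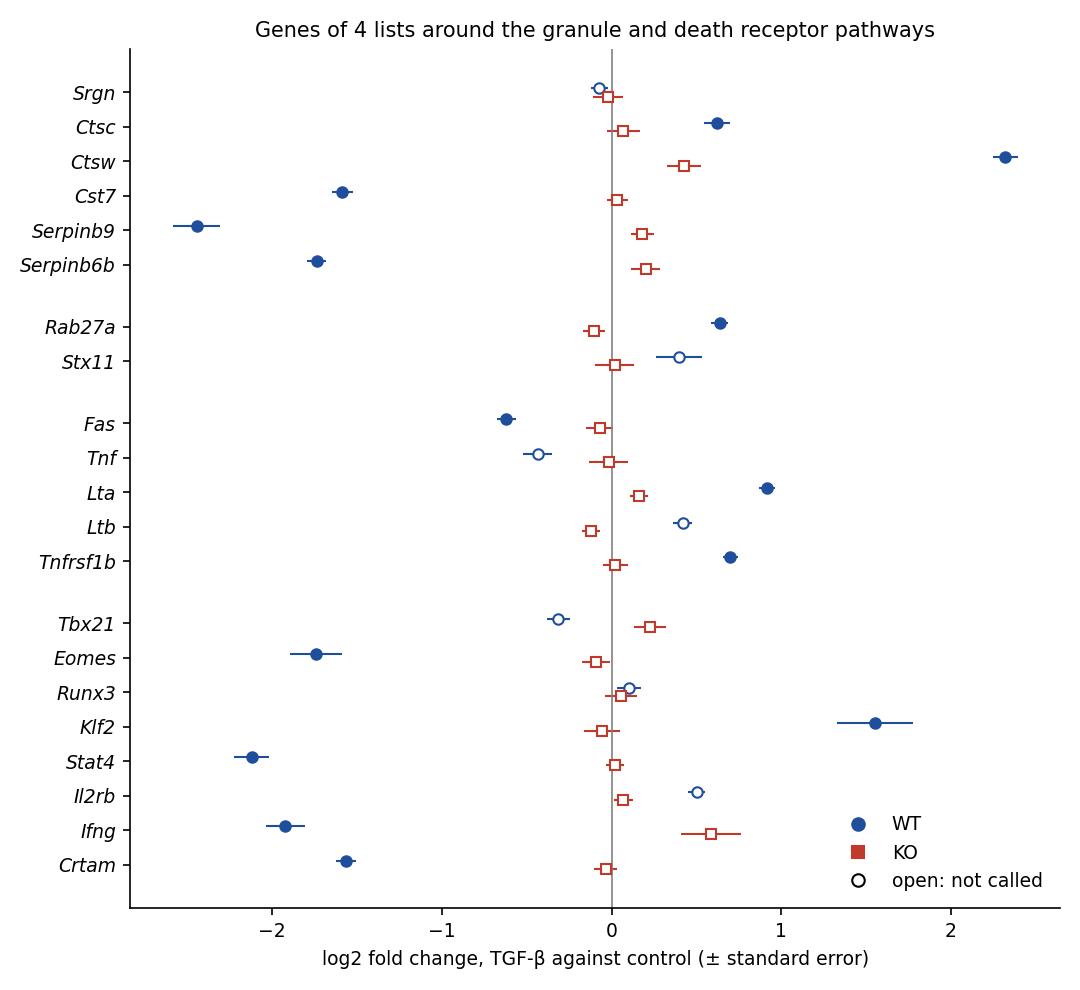
Log2 fold change with TGF-β against control, with its standard error from limma, of 21 named genes from 4 lists, from top to bottom granule storage and inhibitors, granule release, death receptor pathway and regulators; circles are WT, squares KO, filled where called. Serpinb9, Stat4 and Ifng lie at -2.45, -2.12 and -1.92 in WT cells and Ctsw at 2.32, while no KO value is called.

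Markers of other cells were read beside these results, since the purity of the sorted cells is not given in the sources used here. All 8 CD4 T cell markers (Cd3d, Cd3e, Cd3g, Cd4, Cd5, Lck, Zap70 and Cd28) had a mean of at least 1 RPKM, and their sum was 1530 to 2026 RPKM per library. The CD8 markers Cd8a and Cd8b1 summed to 26.0 ± 1.09 RPKM in WT control cells, 16.8 ± 0.423 with TGF-β, 33.8 ± 3.46 with IL-4 and 26.2 ± 0.799 with both cytokines (SD, n = 3). In KO cells the sums were 15.5 ± 1.04, 14.8 ± 0.466, 26.6 ± 0.518 and 27.2 ± 1.02 RPKM. Like Gzma, the sum was lowest with TGF-β and highest with IL-4 in WT cells. Cd8b1, the more abundant of the pair at 11.0 to 30.4 RPKM, had its 8 group means in the same order as Gzma, from 28.02 RPKM in WT cells with IL-4 to 11.6 RPKM in WT cells with TGF-β. It fell with TGF-β in WT cells (log2 fold change -0.75) and rose with IL-4 in KO cells (0.75). Cd8a averaged 5.78 RPKM in WT cells both without cytokines and with IL-4, and 8.49 RPKM with both cytokines. It was lower in KO than in WT control cells (log2 fold change -1.60), as was Nkg7.

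NK cell markers, 8 of 9 listed names being in the table, summed to 4.89 to 14.4 RPKM per library. Their most abundant gene, Klrd1, ran from 0.721 to 3.69 RPKM and averaged 1.77 ± 0.239 RPKM in WT control cells and 2.88 ± 0.714 RPKM with TGF-β. The NK receptor gene Ncr1 averaged 1.37 ± 0.0579 RPKM in WT control cells, 0.493 ± 0.125 with TGF-β and 2.95 ± 0.733 with IL-4. With TGF-β in WT cells Klrd1 was the only one of the 8 NK markers with a higher mean than in control cells, and the other 7 had lower means. Only 2 of the 8 passed the filter there, and neither was called. The NK sum was 7.56 ± 0.233 RPKM in WT control cells, 5.90 ± 0.799 with TGF-β, 11.6 ± 2.37 with IL-4 and 8.17 ± 1.07 with both cytokines, lowest and highest in the same cultures as Gzma. In KO cells it was 5.58 ± 0.523, 5.18 ± 0.393, 6.80 ± 1.22 and 8.62 ± 3.29 RPKM. The sums of mast cell or basophil markers were 4.37 to 13.6 RPKM (7 of 7 in the table, Mcpt8 highest at 2.61 to 10.3 RPKM), those of B cell markers 8.06 to 34.4 RPKM (5 of 5, Cd79b highest at 3.12 to 16.4 RPKM) and those of myeloid markers 0.261 to 18.5 RPKM (5 of 6, Lyz2 highest at 0.111 to 16.7 RPKM).

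Some of these markers differed between the genotypes, as Gzma, Gzmb and Nkg7 did. In KO against WT control cells 3 of 4 tested B cell markers and the 1 tested myeloid marker were called lower and the 1 tested mast cell or basophil marker higher (2.46% of all genes called). The myeloid marker, Lyz2, averaged 0.618 RPKM in KO and 4.17 RPKM in WT control cells. It passed the filter there only through the WT libraries, so its call is a description only. With TGF-β 1 of 1 tested NK and 1 of 4 tested B cell markers were lower in KO than in WT cells (9.68% of all genes called). With IL-4 1 of 5 tested NK markers was lower (2.99% of all genes called). With both cytokines 1 of 4 tested NK markers was higher and 1 lower (8.44% of all genes called). Of the CD8 markers, 1 was lower in KO cells in each of the 4 cultures. The interaction of genotype and both cytokines called 1 of 4 tested NK and 1 of 2 CD8 markers higher (4.18% of all genes called). That of genotype and TGF-β called 1 of 2 CD8 markers higher (4.71% of all genes called). The B cell sum was 9.79 ± 0.703 RPKM in KO and 19.6 ± 4.44 RPKM in WT control cells, the myeloid sum 0.882 ± 0.876 and 4.73 ± 1.34 RPKM, and the mast cell or basophil sum 11.5 ± 1.85 and 6.01 ± 0.573 RPKM. Between WT cultures, the myeloid sum was 12.2 ± 6.2 RPKM with TGF-β, 11.4 ± 4.73 with both cytokines and 3.50 ± 0.867 with IL-4. The 1 tested myeloid marker was called higher with both cytokines than with IL-4 (9.28% of all genes called). The B cell sum was 12.52 ± 1.12 RPKM with TGF-β, 25.3 ± 9.19 with both and 16.8 ± 6.41 with IL-4. With both cytokines 1 B cell marker was called higher than in control cells (9.27% of all genes called) and than with TGF-β. Against TGF-β alone 1 CD8 marker was also called higher with both cytokines (3.03% of all genes called). The interaction of the cytokines called 1 CD8 and 1 CD4 T cell marker higher (1.77% of all genes called). A mast cell or basophil marker, Cma1, was called higher with IL-4 than in control cells (1.29% of all genes called). It was called lower with both cytokines than with IL-4 (9.28% of all genes called), where 1 NK and 1 CD8 marker were lower too. Cma1 averaged 0.560 RPKM in WT control cells, 1.83 with IL-4 and 0.316 with both cytokines. It passed the filter only through the IL-4 libraries, so these calls are a description only. In KO cells with IL-4, 1 CD8 and 1 B cell marker were called higher and 2 CD4 T cell markers lower than in KO control cells (2.51% of all genes called). No marker in the table was at 0 in every library. The part of other cells in the changes of the granzymes and Nkg7 was not tested.

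In the mouse genome (mm9) the granzymes lie in groups. Gzmb (chr14:56877693-56881097) and Gzmc (chr14:56850238-56853493) are 24.2 kb apart in a cluster that holds 7 granzyme genes, and Gzma (chr13:113884033-113891187) and Gzmk (chr13:113961816-114016116) are 70.6 kb apart. Prf1 is at chr10:60760584-60767011, Nkg7 at chr7:50692443-50693616 and Fasl at chr1:163710820-163718626. Of the runs of 50 bases in Gzmc transcripts, 3.95% also occur in Gzmd, Gzme or Gzmg, so a small part of Gzmc reads cannot be placed with certainty. The other 6 genes share no such run with another gene. The authors removed redundant reads, and whether this limits the values of abundant genes such as Gzmb was not tested.

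DNase I hypersensitive sites (DHSs) mark open chromatin, and each of the 4 lists comes from 1 library, so no difference between lists was tested. The lists hold 44298 DHSs for WT control, 33880 for WT with both cytokines, 33665 for KO control and 27145 for KO with both. A DHS lay at the start of Gzmb, Prf1 and Fasl, within 500 bases, in 4 of 4 lists. For Gzma no DHS lay within 10 kb of the gene in any list. In the RNA-seq libraries of these cultures its mean was 30.5 RPKM for WT control, 28.9 for WT with both cytokines, 9.67 for KO control and 47.0 for KO with both. Cells with IL-4 alone, where Gzma was highest, have no DHS list. Nkg7 had none at its start, and the nearest strong DHS, 7.0 kb downstream, lay at the start of Etfb.

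The DHS at the Gzmb start was called with a fold enrichment of 9.81 in WT control cells, within the strongest 13.4% of its list. A weaker DHS beside it in that list ranked at 93.8%. With both cytokines it was 4.80 (rank 59.4% from the top), in KO control cells 4.21 (62%) and in KO cells with both cytokines 5.24 (42.5%). The lists differ in length and come from single libraries, so these ranks do not show a change between conditions. At Fasl the start had fold enrichments of 10.3 (11.4%), 7.41 (23.6%), 5.89 (29.5%) and 6.72 (22.6%) in the same order of lists. Prf1 had 4.06 (82.2%), 6.15 (36.2%), 4.61 (51.5%) and 3.44 (91.5%).

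Further DHSs lay along these genes. Prf1 had an intronic DHS 3.4 kb into the gene in both control lists and in neither list with both cytokines, and another 8.6 kb from its start in 4 of 4 lists. Fasl had one 13.1 kb downstream of its start in 4 lists, one 9.2 kb downstream in the WT lists only, and one 6.2 kb upstream in WT lists and the KO control list, while the KO list with both cytokines had 2, at 6.5 and 6.07 kb upstream. Gzmc had a DHS 6.0 kb upstream in 3 lists, not in WT cells with both cytokines. Gzmk had one in an intron of the longer annotated gene, 27.8 to 28.0 kb from that start, in 3 lists, not in KO cells with both cytokines.

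**Figure D5:**
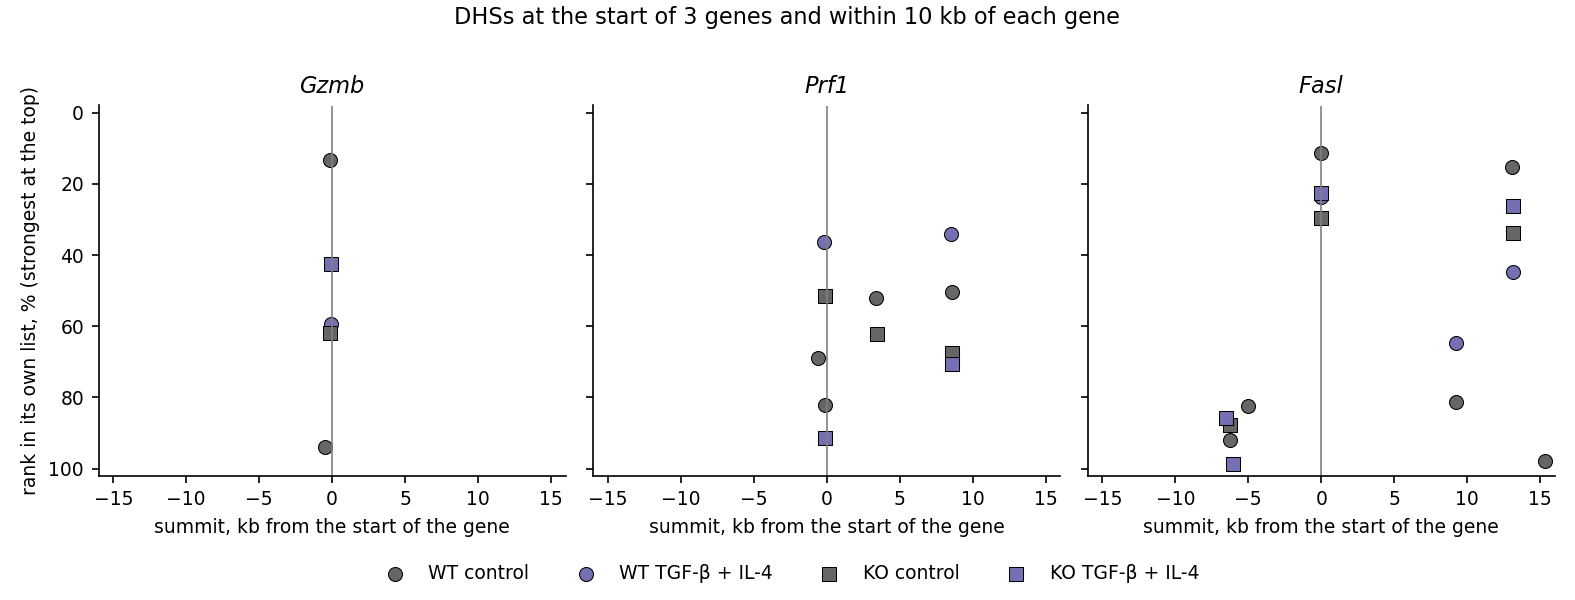
DHSs at and around Gzmb, Prf1 and Fasl in the 4 DNase-seq lists: distance of the summit from the annotated gene start in kb (horizontal) against its rank by fold enrichment in its own list in percent (vertical, strongest at the top); circles are WT, squares KO, grey control and purple both cytokines, 1 library each. The Gzmb start ranks at 13.4% in WT control and between 42.5% and 62% in the other lists.

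The promoters of the genes that moved are shown because the DHSs at Gzmb, Prf1 and Fasl lie in them, and that of Gzma because no DHS was called near it although its message was present. Each runs 5′ to 3′ on the gene's strand, from 250 bases before to 50 bases after the RefSeq start (build GRCm38.p6, minus strand for Gzmb, Fasl and Gzma, plus strand for Prf1): chr14:56262285-56262584 for Gzmb, chr10:61297586-61297885 for Prf1, chr1:161788446-161788745 for Fasl and chr13:113100932-113101231 for Gzma. All 7 genes were matched in RefSeq, and each window was found once and without a mismatch in mm9. Capitals mark matches, on either strand, to any motif searched.
Gzmb: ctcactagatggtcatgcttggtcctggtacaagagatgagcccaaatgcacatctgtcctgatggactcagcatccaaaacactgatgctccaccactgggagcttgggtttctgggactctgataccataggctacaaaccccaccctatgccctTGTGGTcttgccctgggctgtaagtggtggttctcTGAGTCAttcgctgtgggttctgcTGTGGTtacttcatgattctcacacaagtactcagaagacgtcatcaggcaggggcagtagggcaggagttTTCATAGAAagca
Prf1: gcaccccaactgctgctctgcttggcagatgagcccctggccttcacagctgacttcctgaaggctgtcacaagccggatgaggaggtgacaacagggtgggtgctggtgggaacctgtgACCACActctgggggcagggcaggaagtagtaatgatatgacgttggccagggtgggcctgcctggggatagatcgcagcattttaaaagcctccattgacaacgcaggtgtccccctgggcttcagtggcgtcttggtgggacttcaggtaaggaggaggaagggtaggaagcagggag
Fasl: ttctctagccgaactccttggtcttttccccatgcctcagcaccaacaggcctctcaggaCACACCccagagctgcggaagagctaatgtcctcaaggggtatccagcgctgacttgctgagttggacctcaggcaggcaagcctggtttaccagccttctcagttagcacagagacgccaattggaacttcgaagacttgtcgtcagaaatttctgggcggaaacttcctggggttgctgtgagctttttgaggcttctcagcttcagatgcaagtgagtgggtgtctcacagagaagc
Gzma: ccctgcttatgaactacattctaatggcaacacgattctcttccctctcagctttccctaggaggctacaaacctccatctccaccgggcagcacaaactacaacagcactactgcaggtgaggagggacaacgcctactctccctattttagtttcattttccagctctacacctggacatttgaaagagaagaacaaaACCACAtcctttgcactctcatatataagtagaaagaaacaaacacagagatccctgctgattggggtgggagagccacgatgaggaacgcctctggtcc

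The motifs were TGANTCA for AP-1, TGACGTCA for CRE factors, TGTGGT for RUNX, GGTGTG for T-box factors, TTCNNNGAA for STAT, TTC and GAA with 4 bases between them for STAT6, and GTCTAGAC for the SMAD palindrome. Of 32851 RefSeq promoters of this length, 7.81%, 1.79%, 16.8%, 19%, 8.3%, 6.95% and 0.213% hold them, in that order. The Gzmb window holds AP-1 at -58, RUNX at -93 and -34 and STAT at +38, counted from the start to the first base of the match. The DHS summits over it lay at -44 in WT control, -2 in WT with both cytokines, -81 in KO control and +16 in KO with both. Prf1 and Gzma each hold 1 RUNX match, at -130 and -50, and Fasl holds 1 T-box match at -190. The Prf1 summits lay at -138, -174, -132 and -121, and the Fasl summits at -35, +11, -29 and -13, in the same order of lists. Of the Prf1 summits, that of WT with both cytokines, at -174, lay farthest from the RUNX match. Among the other 3 genes, the Gzmc window holds CRE at -57, RUNX at -174 and -108 and T-box at +2, the Nkg7 window RUNX at -83, T-box at -13 and STAT at -220, and the Gzmk window T-box at -75. The STAT6 form and the SMAD palindrome were found in none of the 7 windows. A match is a description, not a site or a cause.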

How the data were processed

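RNA-seq (Smart-seq2) covered 24 libraries of CD4+ T cells, 3 in each of 8 groups, and DNase-seq covered 4. The authors aligned reads with Bowtie2 to mm9, removed redundant reads and those of low mapping quality, and deposited RPKM per gene. The deposited peak lists, called with MACS2 on single libraries, hold the fold enrichment of each DHS and the −log10 of its q-value. Versions are not given in the sources used here.

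Columns were assigned to libraries in library-number order, as described above; 0 columns of per-sample values were left unmapped. Each comparison was fitted on its own groups with limma 3.58.1 in R 4.3.3 (trend, no covariate) on log2(RPKM + 1). Genes averaging under 1 RPKM over the libraries of a fit were dropped. P-values were adjusted over all genes tested by the Benjamini-Hochberg method. Calls needed an adjusted p below 0.01 and a fold change above 1.5. The fit was tested on simulated data, whose outcome is not given here, so no result rests on it. Tables and figures used Python 3.11.15, numpy 2.4.6, pandas 2.3.3 and matplotlib 3.10.9.

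Whether libraries of the same number within a genotype came from 1 mouse is not stated in the labels, so the number was used as a block only in an alternative fit. Deviations of same-numbered libraries correlated at -0.09 to 0.55 in WT pairs (median 0.06, 8 of 18 over 0.1) and -0.30 to 0.42 in KO pairs (median 0.19, 10 of 18 over 0.1). Between genotypes the number pairs nothing. Whole reads behind low values were recovered where they lay within 0.12 of a whole number. Gene positions came from the annotation of mm9 and promoters from RefSeq. From each of 4 lists at most 6 called genes were named, by the size of their change with TGF-β or both cytokines in WT cells or between genotypes with both. A further set (Tbx21, Eomes, Runx3, Prdm1, Serpinb9, Fas, Srgn) was named whatever its values, and the 5 genes most like each member were named by correlation. A gene of the death receptor list is not reported here. The members, lists and motifs were chosen with earlier results of these data known. Alternatives were the column headings, the 8 identified WT libraries, a pseudocount of 0.1, other filters, scalings and fits, an adjusted p of 0.05, the replicate block and leaving out each library.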

Additional observations from a re-analysis of the deposited data

Results flagged for a closer look

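The change with a cytokine differed between WT and KO cells by a test of the difference itself (limma, KO change minus WT change on the log2 scale) for 4 genes. With TGF-β the difference was 2.13 for Gzma, 3.23 for Gzmb, 1.77 for Prf1 and 1.18 for Fasl. With TGF-β and IL-4 together it was 2.16 for Gzma, 2.65 for Gzmb, 1.49 for Prf1 and 0.662 for Fasl. This Fasl call was lost without the filter and in 10 of 12 fits that left out 1 library, with 0.573 without KO replicate 2. Both sets share the control libraries of the 2 genotypes. The KO columns carry no read counts by which they could be identified, so these differences rest on the order of columns.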

How the results depend on the processing

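The 16 comparisons called 41 changes of the members. All 41 kept their call and direction with a pseudocount of 0.1, median-ratio size factors, quantile normalization, no trend and an adjusted p of 0.05. With all 24 libraries in 1 fit 40 kept it, with the replicate block 39, with no filter 36, with a mean of at least 5 RPKM all of the 33 still tested, and with the 8 identified WT libraries 15 of 16. Leaving out 1 library at a time kept 273 of 294 values, and none turned direction.

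With the columns as headed 1 of 41 was kept. The members called were then 0 in each of the 12 other comparisons that had called any, and 1 in KO against WT control cells. Gzmb in KO against WT control cells turned to 0.00787 and Prf1 in KO against WT cells with IL-4 to 0.0633. The headings mix the libraries of different cultures, as the read counts show for 6 of 8 libraries.

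A mean of at least 5 RPKM left 2 members called with both cytokines against control in WT cells (8.49% of all genes called). Against IL-4 it left 3 (9.16% of all genes called). Fewer members were tested under this filter. With both cytokines in KO cells 0 members were called against KO control cells without the filter (0.601% of all genes called). The replicate block also gave 0 (0.912% of all genes called). The interaction of the cytokines in WT cells called 1 member with a pseudocount of 0.1 (1.89% of all genes called). At an adjusted p of 0.05 it called 2 (2.9% of all genes called). The cause was not tested. The block changed no other call than those of Gzma in KO cells with both cytokines and Gzmc in WT cells with TGF-β, apart from Prf1 in KO against WT cells with both cytokines (adjusted p = 0.011), where the numbers pair nothing. In quantile-normalized values Gzma was also called higher in KO than in WT cells with TGF-β (0.61).

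Leaving out 1 library gave 1 to 2 members for IL-4 in KO cells, 0 to 1 for both cytokines in KO cells and 0 to 1 for the interaction of the cytokines in WT cells. It gave 3 to 4 for both cytokines against control in WT cells, for KO against WT cells with both cytokines and for the interaction of genotype and both cytokines, and 4 to 5 for KO against WT cells with IL-4. Within 5 kb in place of 10 kb, 0 lists had a DHS at Gzmc and 0 at Nkg7. A −log10 q of at least 5 changed no count of lists. Of 15 counts of called list genes, 11 moved by over 1.5 times with the columns as headed. With all libraries kept and read by order, 1 moved by over 1.5 times with a pseudocount of 0.1 and 2 with quantile normalization. These were all in both cytokines against control in WT cells (granule release 0 to 1, death receptor 1 to 2). Leaving out 1 library moved 5 of 90 counts by over 1.5 times, among them regulators in KO against WT cells with both cytokines. At 0 to 12 reads per library, differences in Gzmk were not detectable at this depth.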
